A study of Danio rerio with 6 samples.

Results

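The genes described here encode beta subunits of the 20S proteasome, the barrel-shaped protease that degrades ubiquitin-tagged proteins. Their probes were chosen by symbol, as all probes whose annotated gene symbol starts with psmb, which gave 9 probes for 9 genes among 15885 probes on the arrays. The set was proposed with the difference between mutant and wild-type arrays already known, and the division into 4 inducible genes (psmb8a, psmb9a, psmb12, psmb13a) and 5 constitutive genes (psmb3, psmb4, psmb5, psmb6, psmb7) is part of the same choice. The differences between the groups are therefore a description of these genes, and no p-value is printed for any of them. Whether they passed an adjusted threshold is given as part of that description only. The gene table of the GRCz12tu assembly lists 14 genes whose symbol starts with psmb, and the other 5 (psmb1, psmb2, psmb10, psmb11a and psmb11b) have no annotated probe here.

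Olfactory rosettes, the paired organs that carry the sensory epithelium of the nose, were taken from untreated adult zebrafish (Danio rerio) aged 1 to 2 years and of mixed sex. The 2 groups were homozygous Rag1 mutants and their wild-type siblings, with 3 RNA samples each and 1 single-colour array per sample. Rag1 is needed to assemble antigen receptor genes, so the mutant is a model of missing T and B lymphocytes in which innate immune cells are still present. The labels do not give the mutant allele, nor whether the 3 samples of a group came from separate fish, so the spread between samples may be technical. The standard errors below rest on that spread, drawn by limma towards the spread of all probes. They are therefore not the spread of 1 gene alone. One field of mutant sample 2 reads wild type, while its title and strain give the mutant, and it was kept as a mutant.

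Catalytic beta subunits carry the protein-cutting sites of the barrel. In mammals the standard barrel has 3 of them, PSMB6 (beta1), PSMB7 (beta2) and PSMB5 (beta5), and interferon-gamma induces substitutes for each, PSMB9, PSMB10 and PSMB8, which are built into newly made barrels in place of their counterparts. The resulting immunoproteasome favours peptides that class I major histocompatibility molecules can present, and leukocytes make it even without induction. In the zebrafish gene table psmb8a has the synonym beta5ia, psmb9a beta1ia, psmb12 beta1t and psmb13a beta2ta, which name the position each one fills.

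All values are log2 of normalized spot brightness, and a difference is the mean of the 3 mutant arrays minus that of the 3 wild-type arrays, given with the standard error of limma's fit across all probes. Arrays are numbered within each group. Over 15616 probes tested, any pair of wild-type arrays correlated at 0.981 to 0.988, any pair of mutant arrays at 0.983 to 0.987 and a mixed pair at 0.963 to 0.973, and gene spots had a median brightness of 4.75 to 7.21 times that of blank spots. The probe of rag1 itself lay near the blank spots, at 6.46 to 6.75 on 5 arrays and 11.92 on mutant array 3, so it checks no label. The probe of rag2 differed by -0.16 (limma adjusted p = 0.695). Neuronal markers of the labelled tissue ranged widely in brightness. Of 6 measured, the brightest was the G protein subunit gene gng13b, at 15.48 in wild type and 14.76 in the mutants. The dimmest was ebf2, at 8.17 in wild type and 7.74 in the mutants.

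The 4 inducible genes were higher in the mutants by 0.81 to 1.08 on the log2 scale, about 1.76-fold to 2.12-fold, while among the constitutive genes 4 differed by 0.19 to 0.55 and psmb7, the beta2 subunit, was lower by a difference of -0.80. All 4 inducible probes and psmb7 passed an adjusted p of 0.05 in limma's fit over all probes, with Benjamini-Hochberg adjustment. Over all probes 4.87% passed, 2.46% higher and 2.41% lower. With the sample number, in part assigned here from listing order, as a block in the fit, the same 5 probes passed, beside 7.84% of all probes. Leaving out 1 array, 5 passed without wild-type array 1 and 3 or 4 without any other: psmb8a was lost without wild-type array 2, psmb12 without wild-type array 3 or any mutant array, and psmb7 without wild-type arrays 2 or 3 or mutant arrays 1 or 3. Of all probes 3.9% passed without wild-type array 1, 3.38% without mutant array 2 and 1.68% to 2.1% without any other array. Without mutant array 2, whose labels disagree, the differences were 1.13 for psmb8a, 0.96 for psmb9a, 0.83 for psmb12, 1.03 for psmb13a and -0.87 for psmb7. The arrays of the groups did not overlap for 8 of the 9 genes, where 25.8% of all probes did not overlap. Since the set was proposed on this contrast, nothing is read from these counts.

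**Figure D1:**
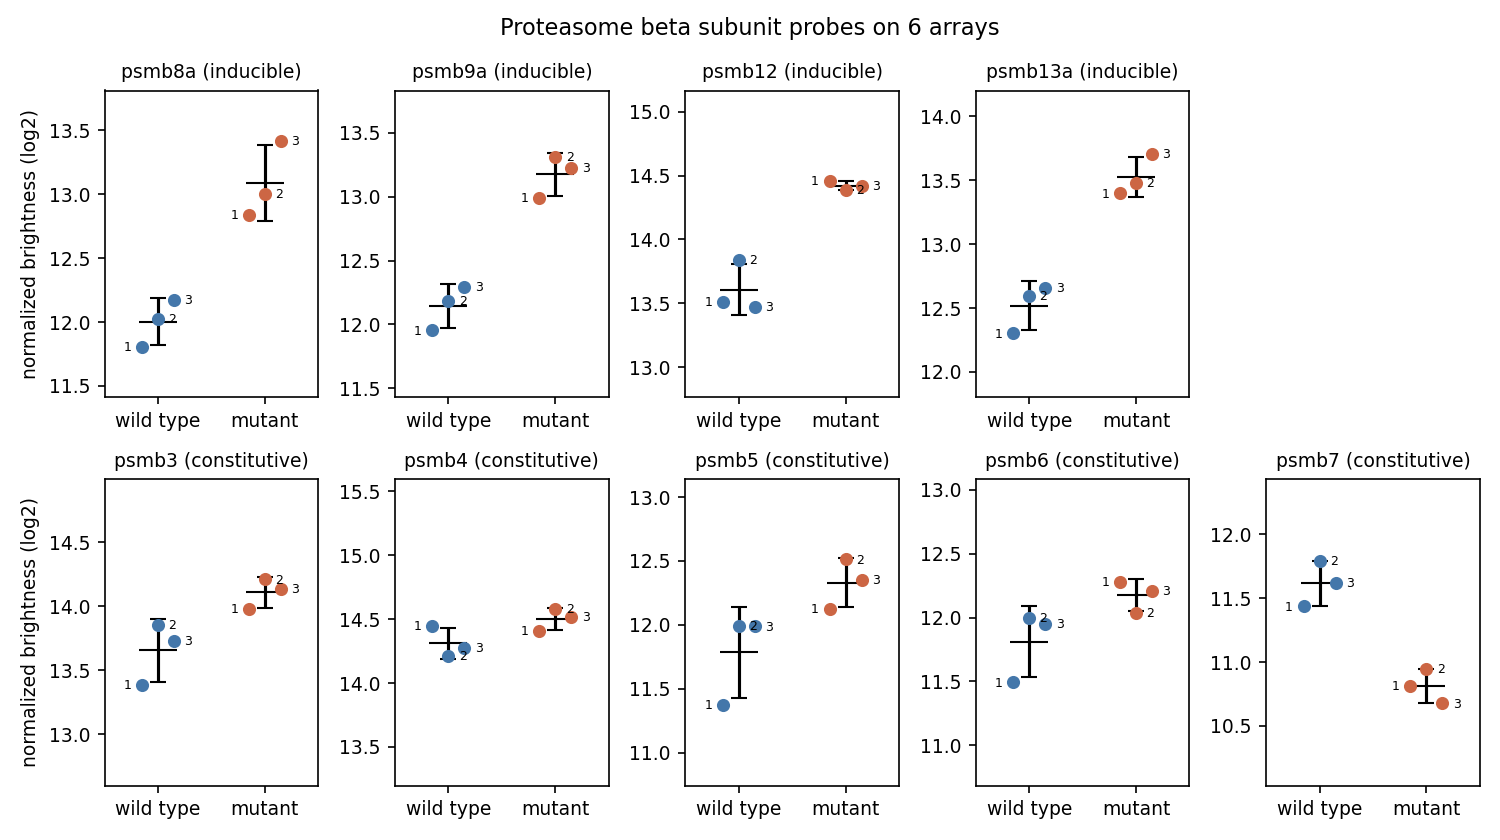
Normalized brightness (log2, vertical axis, every panel spanning the same range) of the 9 psmb probes on 3 wild-type arrays (blue) and 3 mutant arrays (orange), with the array number beside each point, the mean as a line and the SD as bars. The mutant points lie above the wild-type points in all 4 inducible panels, below them for psmb7, and overlap with them for psmb4.

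Among the inducible genes, psmb8a encodes the counterpart of the mammalian beta5 substitute, whose site cuts after hydrophobic residues. Its probe read 11.81, 12.03 and 12.17 in wild type (arrays 1 to 3, the order kept for every gene) and 12.84, 13.00 and 13.42 in the mutants. The lowest mutant value lay 0.66 above the highest wild-type value, and the mutants were spread more widely (SD 0.30, n = 3) than the wild type (SD 0.18, n = 3). The difference was 1.08 (SE 0.18, 2.12-fold), the largest of the 9.

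psmb9a encodes the counterpart of the mammalian beta1 substitute. Its values were 11.95, 12.19 and 12.29 in wild type and 12.99, 13.31 and 13.23 in the mutants. Here mutant array 2, not 3, was the brightest, and a gap of 0.70 separated the groups. The mutants were higher by 1.03 (SE 0.15, 2.04-fold).

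psmb13a, which fills the beta2 position by its synonym, read 12.30, 12.60 and 12.66 in wild type and 13.40, 13.48 and 13.70 in the mutants. The order of the arrays within each group was the same as for psmb8a, and the gap between the groups was 0.74, the widest of the 9 genes. The difference was 1.01 (SE 0.15, 2.01-fold).

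psmb12 carries the synonym beta1t and so shares the beta1 position with psmb9a. Its probe read 13.51, 13.84 and 13.47 in wild type and 14.46, 14.39 and 14.42 in the mutants. The 3 mutant arrays were almost level (SD 0.04, n = 3), while wild-type array 2 stood above the other two. The difference of 0.81 (SE 0.14, 1.76-fold) was the smallest of the inducible genes, with a gap of 0.55 between the groups.

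The constitutive genes did not behave as 1 group. psmb5, the beta5 subunit that psmb8a replaces, read 11.37, 11.99 and 11.99 in wild type and 12.13, 12.51 and 12.35 in the mutants. Wild-type array 1 was low and the other wild-type arrays came within 0.13 of the lowest mutant array. The difference was 0.55 (SE 0.20), and 0.34 without wild-type array 1.

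psmb6, the beta1 subunit, showed the same low reading on wild-type array 1, with 11.49, 11.99 and 11.95 in wild type against 12.28, 12.03 and 12.21 in the mutants. The groups were 0.04 apart. The difference was 0.36 (SE 0.17), and 0.20 without wild-type array 1.

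psmb3 and psmb4 encode structural subunits of the ring that have no cutting site in mammals. psmb3 read 13.38, 13.85 and 13.73 in wild type and 13.98, 14.21 and 14.14 in the mutants, a difference of 0.45 (SE 0.16) that was 0.32 without wild-type array 1. psmb4 read 14.45, 14.21 and 14.28 in wild type and 14.41, 14.58 and 14.52 in the mutants. Its groups overlapped and its difference was 0.19 (SE 0.13), the smallest of the 9. In contrast to psmb3, psmb5 and psmb6, psmb4 was brightest on wild-type array 1 among the wild-type arrays. None of these 4 genes passed the threshold of the fit.

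psmb7, the constitutive beta2 subunit, whose mammalian site cuts after basic residues, went the other way. It read 11.44, 11.79 and 11.62 in wild type and 10.82, 10.95 and 10.68 in the mutants. All 3 mutant arrays were below all 3 wild-type arrays, with a gap of 0.49. The difference was -0.80 (SE 0.14), so that wild-type brightness was 1.74 times that of the mutants. By spot number psmb7 lies directly beside psmb6, whose difference had the opposite sign. Other adjacent pairs had the same sign: psmb9a and psmb5 (1.03 and 0.55), and psmb13a and the alpha subunit gene psma6l (1.01 and 0.67). So did psmb8a and the alpha subunit gene psma6a (1.08 and 0.11). An effect of spot position was not tested.

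**Figure D2:**
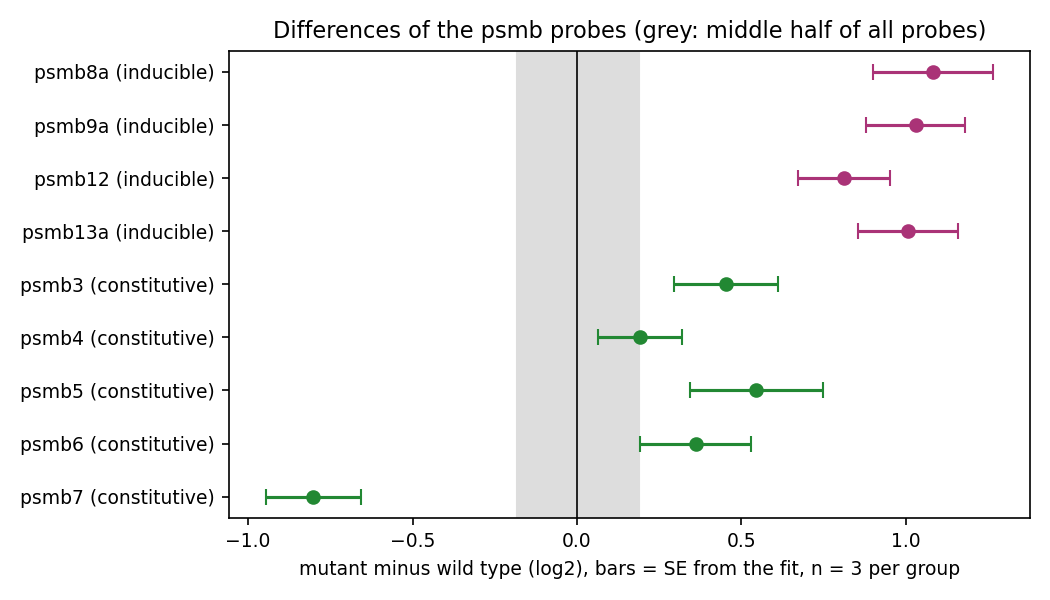
Difference between mutant and wild-type means (log2, horizontal axis) for each psmb probe, with the SE of limma's fit as bars and n = 3 arrays per group. Inducible genes (purple) lie at 0.81 to 1.08, psmb3 to psmb6 at 0.19 to 0.55 and psmb7 at -0.80, and the grey band from -0.18 to 0.19 runs from the lower to the upper quartile of all 15616 probes.

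The separation was present before any normalization. In raw brightness, in units of a pixel, psmb8a ran from 3012 to 6554 in wild type and from 6851 to 10687 in the mutants. psmb12 ran from 9472 to 15588 in wild type and from 21071 to 21368 in the mutants, and psmb7 from 2345 to 4460 in wild type and from 1660 to 2056 in the mutants. The groups did not overlap in raw brightness for the 4 inducible genes and psmb7, 5 of 9, and overlapped for the other 4, where 16.2% of all probes did not overlap. Each of the 9 probes had 10.5 to 164 times the 95th percentile of blank brightness on every array, and none was saturated. Pixels were less even in the spots of psmb8a, with a pixel SD of 0.432 to 0.512 of the mean, than in the median gene spot (0.257 to 0.284). The spots of psmb6 (0.441 to 0.514), psmb7 (0.399 to 0.492), psmb5 (0.395 to 0.464) and psmb9a (0.377 to 0.431) were also less even than that median on every array of both groups.

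The authors' deposited table, which gives each probe as a ratio centred on 1, was read for the same genes. In the authors' deposited table psmb8a was at 0.574, 0.709 and 0.787 in wild type and 1.21, 1.30 and 1.75 in the mutants. There psmb7 was at 1.16, 1.54 and 1.39 in wild type and 0.781, 0.844 and 0.692 in the mutants. The groups did not overlap for 8 of the 9 genes in the authors' deposited table, psmb6 being the exception in place of psmb4. The share of all probes of that table without overlap was not computed, so this count has no baseline.

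Averaged over the 4 inducible genes, with every probe set to 0 at its wild-type mean, the shift in wild type was -0.18, 0.09 and 0.08, against 0.85, 0.98 and 1.12 in the mutants. The 5 constitutive genes together were at -0.21, 0.13 and 0.08 in wild type and 0.09, 0.22 and 0.14 in the mutants. The inducible means were 0.76 apart at the closest, while the constitutive means overlapped, since psmb7 offset the other 4. The inducible mean differed by 0.98 and the constitutive mean by 0.15, or by 0.05 without wild-type array 1. Subtracting the constitutive from the inducible mean on each array gave -0.04 to 0.03 in wild type and 0.75 to 0.98 in the mutants. Low readings of wild-type array 1 were common to both classes and cancelled in this subtraction. The fall of psmb7 enlarged its result. With psmb7 left out, a choice made after its value was seen, the constitutive mean differed by 0.39 in place of 0.15. The groups then did not overlap, with a gap of 0.19. The median difference was 1.02 for the inducible genes, 0.36 for the constitutive genes and 0.01 over all probes.

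**Figure D3:**
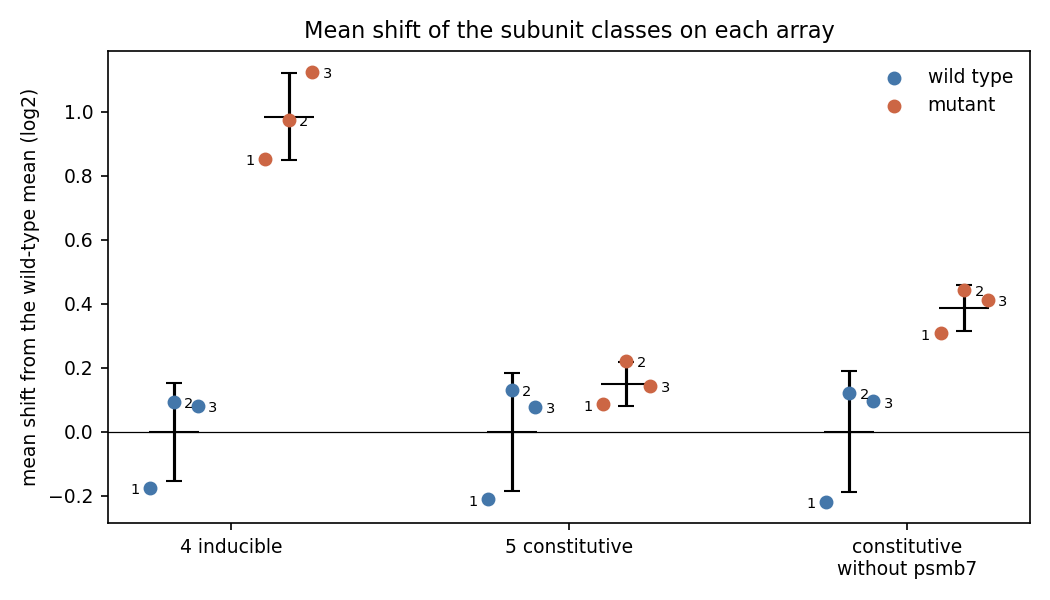
Mean shift from the wild-type mean (log2, vertical axis) of the 4 inducible genes, the 5 constitutive genes and the constitutive genes without psmb7, for 3 wild-type (blue) and 3 mutant arrays (orange), numbered, with mean and SD. Inducible shifts reach 0.85 to 1.12 in the mutants, constitutive shifts 0.09 to 0.22, and 0.31 to 0.44 with psmb7 left out, a choice made after its value was seen.

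Each inducible gene was also set against the constitutive gene of its position, as given by the synonyms, a pairing chosen after the values were seen. The ratio of psmb13a to psmb7 shifted most. Relative to its wild-type mean it was -0.04, -0.10 and 0.13 in wild type and 1.68, 1.63 and 2.12 in the mutants, a shift of 1.81 or 3.50-fold. At the beta1 position psmb9a over psmb6 shifted by 0.67 and psmb12 over psmb6 by 0.45. At the beta5 position psmb8a over psmb5 shifted by 0.54, and there the closest wild-type and mutant arrays were only 0.05 apart. All 4 ratios were higher on every mutant array than on any wild-type array. How often the ratio of other probe pairs separates the groups was not computed, so this count has no baseline. With genes and pairing chosen on this contrast, nothing is read from it. The 4 ratios describe unequal change of probe brightness within an array and give no amounts of protein. Whether the 2 probes of a ratio respond equally to RNA was not tested.

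**Figure D4:**
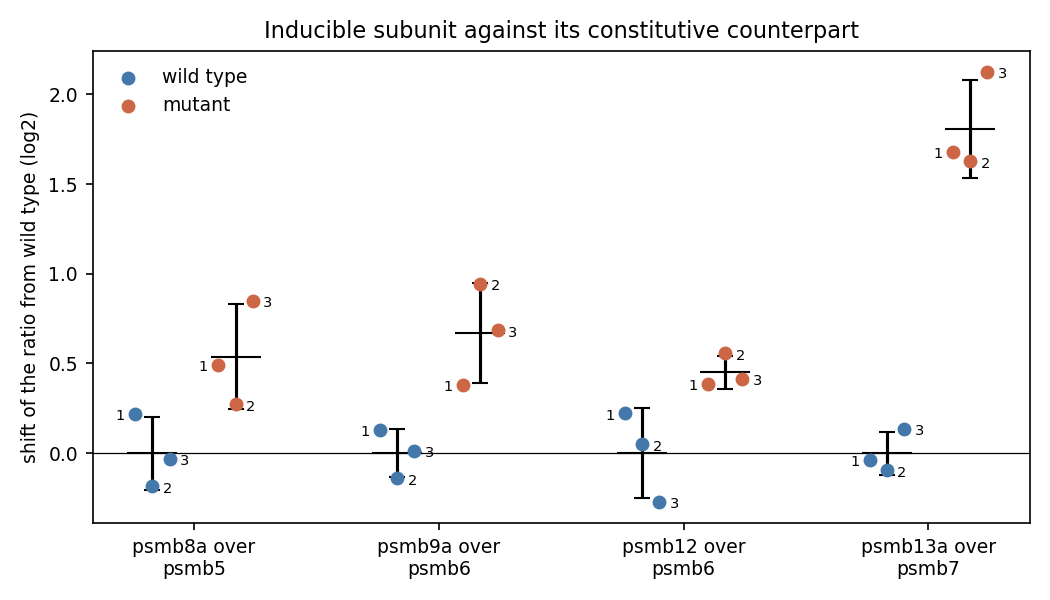
Log2 ratio of each inducible subunit probe to the constitutive probe of the same position, relative to its wild-type mean (vertical axis), on 3 wild-type (blue) and 3 mutant arrays (orange), numbered, with mean and SD. The psmb13a over psmb7 ratio lies at 1.63 to 2.12 in the mutants, and the other ratios lie between 0.27 and 0.94.

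Over the 6 arrays the inducible genes ran closely together, with Pearson correlations of 0.897 to 0.991 over their 6 pairs, which mostly reflect the shared group difference. With group means taken out, psmb8a and psmb13a still had r = 0.936 and psmb9a and psmb13a r = 0.773, whereas psmb12 had r of -0.03 with both psmb8a and psmb9a. Among the constitutive genes psmb3 and psmb5 were most alike (r = 0.974 with group means taken out), and psmb4 ran against psmb6 (r = -0.949). These values rest on 6 arrays that share their normalization and are given without a test. The 5 named probes most like the mean of the inducible genes over the 6 arrays, of 5692 named probes, were abracl (r = 0.999), dpp3 (0.996), eif4ebp1 (0.996), wu:fj29h11 (0.993) and cnih4 (0.989). With group means taken out they were cptp (0.996), pomp (0.995), map3k7 (0.995), prrc2a (0.995) and ches1 (0.995). Of these, pomp encodes the chaperone that assembles beta subunits into new barrels. The 5 values of r were nearly equal and were the highest of 5692 probes over only 6 arrays, so they do not set pomp apart.

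The 4 inducible genes lie together on chromosome 19, next to each other in the gene table with no other annotated gene between them, and 2 of them lie within the annotated span of psmb8a. psmb4 is also on chromosome 19, psmb5 is on chromosome 2, psmb3 on 6, psmb7 on 21 and psmb6 on 23. Within 10 annotated genes of any of the 4, 20 other genes are listed, and 10 of them were measured here with 15 probes. None of these 15 probes passed limma's adjusted threshold in either direction, where 4.87% of all probes passed. With so few probes this count does not show that the region was unchanged. The median difference of the 15 probes was 0.13. On one side the nearest measured gene was the class I gene mhc1uba, at 15.70, 15.84 and 15.84 in wild type and 15.98, 15.99 and 15.99 in the mutants, close to the top of the scale. Farther out on that side lies tapbp.1, whose product tapasin loads peptides onto class I molecules. It read 10.96, 10.57 and 9.93 in wild type and 11.18, 11.49 and 11.45 in the mutants, a difference of 0.89 (SE 0.25, limma adjusted p = 0.0934). On the other side the nearest measured gene was brd2a, a chromatin reader gene, whose 3 probes disagreed (-0.55, 0.08 and 0.34).

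Among the other parts of the proteasome 1 of the measured genes passed the fit, where 4.87% of all probes passed. Of 11 alpha subunit genes listed 2 were measured, and neither passed the fit: psma6l was at 0.67 (SE 0.17, limma adjusted p = 0.0674) and psma6a at 0.11. Of 25 genes of the 19S regulatory particle, which recognises and unfolds tagged proteins, 4 were measured, with a median of 0.21, and none passed. Of 11 activator and assembly genes 8 were measured, with a median of 0.40. Of these 8, 7 were above 0, but only psmg4, an assembly chaperone gene, passed (0.69, SE 0.15, limma adjusted p = 0.0447). It read 11.82, 12.22 and 11.79 in wild type and 12.69, 12.62 and 12.59 in the mutants. psmg2, of the same list, was almost as far apart (0.63, SE 0.18, limma adjusted p = 0.0905). Its groups did not overlap, as for 25.8% of all probes, and it did not pass.

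The activator genes psme1 and psme2 encode the PA28 cap, which is induced together with the immunoproteasome in mammals. psme1 read 13.08, 13.79 and 14.19 in wild type and 14.60, 14.32 and 14.72 in the mutants, and psme2 read 13.69, 13.70 and 13.87 against 14.16, 14.24 and 14.34. Neither group pair overlapped, where 25.8% of all probes did not overlap. The differences of 0.86 (SE 0.27, limma adjusted p = 0.119) and 0.49 (SE 0.12, adjusted p = 0.0691) did not pass. psme3, whose product caps proteasomes in the nucleus, was at 0.19 and psme4b at 0.07. The assembly gene pomp was at 0.32.

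Of 18 genes of peptide transport and loading 5 were measured, with a median of 0.48, and none passed, where 4.87% of all probes passed. Among them b2m lay at the top of the scale (15.97 and 15.99) and tapbpl near the blank spots (6.27 and 6.40), so neither can show a direction. Of 4 class I genes measured, mhc1ufa and mhc1uda fell and mhc1uba and mhc1uca did not pass. mhc1ufa read 13.83, 13.84 and 13.76 in wild type and 6.40, 6.29 and 6.36 in the mutants, the last close to the blank spots. The 2 probes of mhc1uda both fell but by very different amounts, from 13.59 to 11.90 at the probe that was brighter over all arrays and from 14.21 to 6.94 at the other. The probes of mhc1ufa and mhc1uda fell in the same samples in which those of the inducible subunits rose. What lowered these class I readings, and so unequally at the 2 probes of mhc1uda, was not tested.

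Of 26 genes listed as regulators of subunit expression, 7 were measured and 2 rose, stat2 (1.65, SE 0.28, limma adjusted p = 0.021) and irf9 (1.36, SE 0.17, adjusted p = 0.00674), whose products act in type I interferon signalling. irf1a, the factor through which interferon-gamma induces PSMB9 in mammals, was at 0.87 (SE 0.28, adjusted p = 0.127), with 10.89, 10.29 and 10.04 in wild type and 11.21, 11.75 and 10.86 in the mutants. nfe2l1a, the zebrafish counterpart of a factor that drives constitutive proteasome genes in mammals, lay near the blank spots at 6.55 in wild type and 6.60 in the mutants. Of 5 interferon response genes measured 4 rose (adar, cmpk2, ifi27.3 and phf11) and ifi44a5 fell. Its probe read 9.26, 9.81 and 9.66 in wild type and 6.09, 6.25 and 6.11 in the mutants, the last close to the blank spots. Over all probes 4.87% passed. Because the lists were drawn up with earlier results of these arrays known, their counts are not independent evidence.

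**Figure D5:**
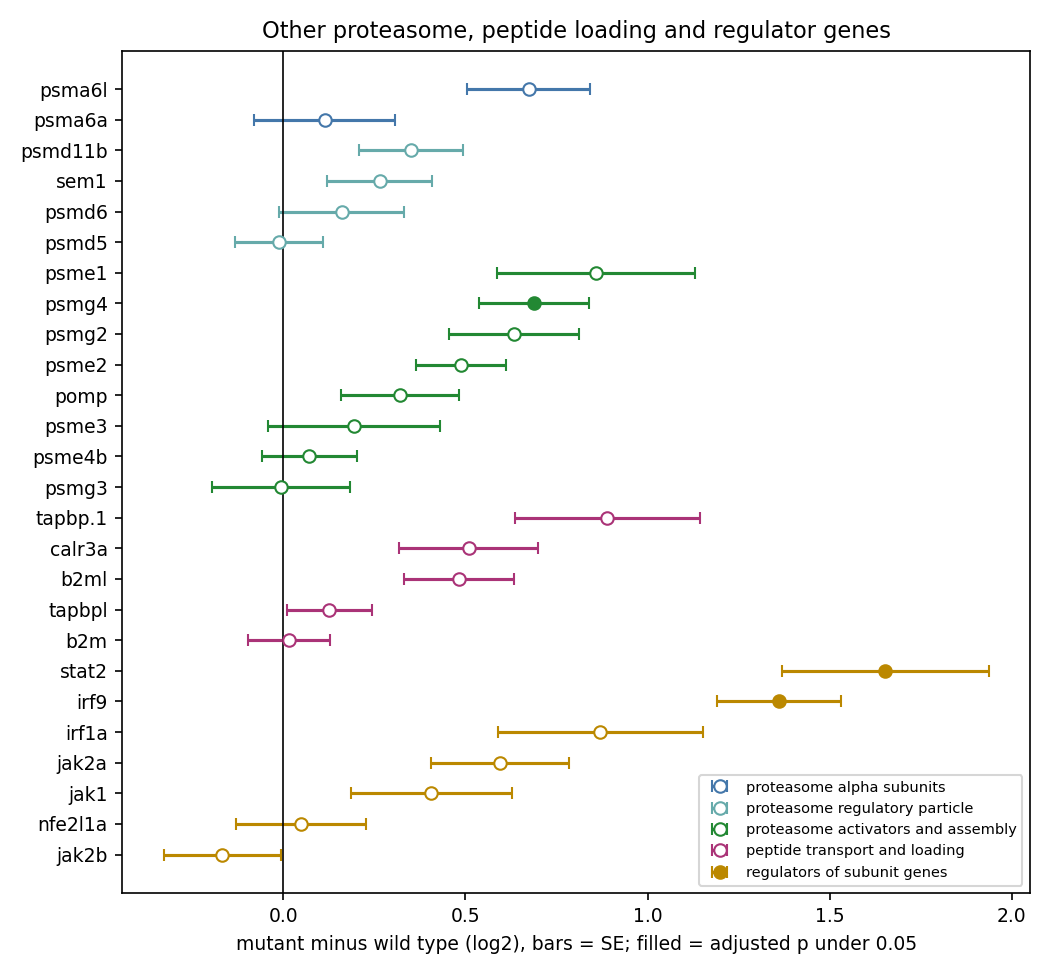
Difference between mutant and wild-type means (log2, horizontal axis) of measured genes of 5 lists, coloured by list, with the SE of limma's fit as bars and n = 3 arrays per group. Filled points (psmg4, stat2 and irf9) passed an adjusted p of 0.05, and tapbp.1, irf1a and psme1 lie at 0.86 to 0.89 without passing.

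Several markers of macrophages and neutrophils rose in the same mutant samples, while some lymphocyte markers fell. Over all probes 2.46% passed as higher and 2.41% as lower. In tissue samples such as these, more cells of a type and more RNA per cell cannot be told apart. Of 4 macrophage markers 3 rose, and the summed normalized brightness of all 4 was 14994 to 21325 in wild type and 29463 to 41086 in the mutants. This sum is mostly that of lgmn (13.71 and 14.67), the marker that did not pass (limma adjusted p = 0.0545), so it says little of the 3 that rose. Of 6 genes listed as neutrophil markers 4 rose (alox5ap, cpa5, lyz and mpx), with sums of 6047 to 8102 against 13423 to 35219. In the mutants lyz is the largest part of these sums. From this list ncf1 (0.50) and cebpa (0.90) did not pass. Of 6 general leukocyte markers 3 rose, laptm5 (0.80), lcp1 (1.05) and spi1b (1.46). From this list ptprc (0.43, SE 0.24) did not pass, and its groups overlapped. The summed brightness of all 6 was 135245 to 150617 in wild type and 160317 to 167723 in the mutants. It is mostly that of cd74a (15.98 in both groups) and cd74b (15.86 and 15.97), which lay at the top of the scale and had little room to rise. Of 5 red blood cell markers 1 rose, with sums of 15907 to 21766 against 26762 to 66945. These sums are mostly those of hbaa1 (13.15 and 14.50) and hbba1 (13.18 and 14.42), neither of which passed. Olfactory neuron markers lay the other way: 4 of 6 fell, with sums of 66487 to 81849 against 33404 to 43141. Most of the neuron sums is gng13b (15.48 and 14.76), which was among those that fell.

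Of 5 T-cell markers 2 fell, with sums of 4744 to 5615 in wild type and 3013 to 3747 in the mutants. The largest part of these sums is that of bcl11ba (10.96 and 10.43), a marker that did not pass. The T-cell receptor gene trac was at 10.63 in wild type and 9.53 in the mutants, and zap70, a kinase of T-cell receptor signalling, at 9.52 and 7.46. The other members did not pass: bcl11ba was at -0.53, while the transcription factor genes runx3 (0.73) and tox (0.56) lay the other way. The groups did not overlap for any of these 3, where 25.8% of all probes did not overlap. Of 3 B-cell markers 1 fell, igl1c1 (9.97 in wild type and 7.93 in the mutants), with sums over the list of 1874 to 2746 against 1320 to 1590. Differences of -0.03 for btk and -0.11 for the dim pax5 did not pass.

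Every measured marker of these 7 lists was above the blank spots on all 6 arrays, but so was nfe2l1a (6.55 and 6.60), described above as near them. Little brighter than nfe2l1a were pax5 (6.90 in wild type and 6.79 in the mutants) and, in wild type, cpa5 (6.92) and the red blood cell marker alas2 (6.82). Such low readings may not show expression of these genes. The part of these cell types in the subunit differences was not tested. Neutrophil lysozyme (lyz), which had the largest difference of its list, read 10.27, 10.28 and 10.26 in wild type and 14.02, 12.69 and 14.23 in the mutants. The macrophage gene mpeg1.1 had a mean of 10.96 against 12.16.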

How the data were processed

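Scanner tables deposited by the authors hold, per the file headers, a raw intensity and a local background per spot, neither subtracted nor normalized. The sources used here name no scanner or software. Intensities, summed over a spot, were divided by 100. Each entry of the authors' deposited processed table is a ratio, centred on 1 per probe by its values, with column medians of 0.955 to 1.03 and unknown scaling between arrays. It served as an alternative and was matched by spot number (lowest r with its own array 0.915, highest with another 0.412).

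A print block of wild-type array 2 was misread by 1 row of spots (r = 0.241 in place, 0.981 off by a row). Its 400 spots, none of a psmb gene, and 1 unreadable spot were left out. Background was corrected with normexp (offset 50) and arrays were quantile normalized in limma 3.58.1 (R 4.3.3). Probes above the 95th percentile of the blank spots on all arrays of a group were kept (15616 of 15885). The fit across all probes used lmFit and eBayes, 2-sided, with Benjamini-Hochberg adjustment. Of the probes, 5773 had 1 gene symbol in the platform annotation (checked by gene identifier), 73 several and 10039 none. A gene with several probes is given by its brightest over all arrays, unless said otherwise.

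Members and lists were chosen with earlier results of these data known. Named are all psmb probes, list genes that passed or that the results turn on, measured neighbours and the 5 most alike probes by 2 measures. Only sample number 2 is spelled out in the labels of both groups, the others in part only name a sample. Same-numbered arrays deviated together from their group means (r of 0.317, 0.223 and 0.284), so a fit with the number as a block is given beside the calls. Protein and promoter sequences were not analysed here. The number of arrays limits the precision.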

Additional observations from a re-analysis of the deposited data

How the results depend on the processing

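Over 17 alternatives every one of the 9 genes kept the sign of its difference. The count of 5 psmb probes past the adjusted p of 0.05 was the same with no background correction, local subtraction, another offset or scaling, either other filter, all print blocks kept, the authors' deposited table, a trended robust fit and the replicate block, which gave 5. Of all probes 3.88% to 7.84% passed in those settings. Leaving out 1 array gave 3 to 5, beside 1.68% to 3.9% of all probes. psmb9a and psmb13a passed in all 6 fits with 1 array left out, psmb8a in 5 (not without wild-type array 2), psmb12 in 2 (without wild-type array 1 or 2) and psmb7 in 2 (without wild-type array 1 or mutant array 2). Without both number 2 arrays the count was 0, with 107 of 15692 probes passing in all, and psmb8a was at 1.14, psmb9a at 0.98, psmb12 at 0.94, psmb13a at 1.07 and psmb7 at -0.79. Fewer arrays entered those fits. The mean difference of the inducible genes ranged from 0.90 to 1.05 when 1 array was left out. The inducible minus constitutive difference, which the fall of psmb7 enlarges, then ranged from 0.76 to 0.87. The constitutive mean ranged from 0.05 to 0.21 and rested on wild-type array 1. Over all alternatives psmb6 ranged from 0.20 to 0.52 and psmb4 from 0.10 to 0.26. The number of probes passing in all, 761, was 1225 with the replicate block, and 328, 326, 263 and 311 without wild-type arrays 2 and 3 and mutant arrays 1 and 3.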
